A study of Mus musculus with 6 samples.

Results

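The comparison described here sets 2 cell lines with the same gene knocked out against each other: Ki-67 knockout clone 2 (2 libraries) against Ki-67 knockout clone 1 (2 libraries), 4 of the 6 libraries of the study. The members were taken by their titles. Both lines were derived from 4T1, a mouse mammary carcinoma line of the BALB/c strain, both carry the genotype Mki67-/-, and both were grown in the same serum-containing medium without a further treatment. The other 2 libraries are from wild-type (WT) 4T1 cells and are used for the estimate of spread and as a reference level. Each clone is 1 line, so the differences are between these lines. Nothing in the sample labels tells separate cultures from repeat preparations, so a p-value here is set against the spread of these libraries alone, part of which may be technical.

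Ki-67, the product of Mki67, is a nuclear protein of cycling cells that coats mitotic chromosomes, and its antibody stain is a routine index of proliferation in breast tumours. Cells without it can divide and grow into lines. 4T1 is a line that spreads to distant organs in mice, and it is known for releasing granulocyte colony-stimulating factor and chemokines that bring neutrophils into the blood and the tumour. A line grown from 1 edited cell also carries whatever that cell had in its genome and its chromatin, so sister clones are commonly compared to show how far lines with the same edit differ.

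The measure was strand-specific sequencing of total RNA depleted of ribosomal RNA, counted per gene. The gene reads came to 22597596 and 22658499 in clone 1, 17103941 and 22275937 in clone 2, and 10428970 and 16852152 in WT. Levels are given as CPM (counts-per-million, with library sizes scaled by the TMM method), where 3 counts, the floor of detection, equal 0.132 to 0.175 CPM in the clones. Across genes, log2 CPM correlated at r = 0.9952 between the libraries of clone 1, at 0.9931 between those of clone 2, and at 0.9777 to 0.9815 between the clones; genes are not independent replicates. The 10 genes with the most reads took 20.5% and 21.2% of them in clone 1 and 17.7% and 14.97% in clone 2. Reads that matched no annotated exon on the counted strand made up 12.2% and 10.7% against 9.51% and 9.21% of all reads. Of the mammary epithelial markers, 10 of 12 were read well enough to be tested, with a summed level of 5914 to 5936 CPM in clone 1 and 5981 to 6392 CPM in clone 2, while Krt5 and Elf5 were at 0.

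Mki67 itself (ENSMUSG00000031004, GRCm38 chromosome 7, 135689784 to 135716361, minus strand) was read in both clones. Its level was 85.8 and 103 CPM in clone 1, 39.9 and 52.8 CPM in clone 2, and 736 and 647 CPM in WT. The 2 clones did not overlap, and clone 2 was lower (94.2 ± 11.8 against 46.3 ± 9.07 CPM, mean ± SD, n = 2 each; log2 difference -1.02, SE 0.146, adjusted p = 0.000503 in edgeR's quasi-likelihood test). Reads summed over the gene say nothing of where it was edited. Here and below, fewer cells that express a gene and less of its RNA per cell cannot be told apart in bulk RNA.

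Of 13755 genes tested, 3028 differed between the clones at an adjusted p under 0.05, which is 22.0% of the genes. In clone 2, 1550 genes were higher (11.3%) and 1478 were lower (10.7%), and the median log2 difference of all tested genes was -0.0033. Most differences were small, with a median size of 0.612 on the log2 scale among the called genes, and 286 genes were higher and 393 lower by more than 2-fold. The number of calls depended on which libraries were used. With 1 library left out, in the order clone 1 replicate 1, clone 1 replicate 2, clone 2 replicate 1 and clone 2 replicate 2, 543, 477, 341 and 852 genes were called higher and 665, 508, 284 and 859 lower. Without WT replicate 1 or WT replicate 2, whose own spread was wider, the counts were 2343 and 2365 higher and 2063 and 2080 lower. Counts of gene groups with 1 library left out are given below in the same order of the 4 clone libraries. A gene named below with a call was called in each of 18 other fits that gave it an adjusted p, 6 of them without 1 library, unless a value is given beside it; a required minimum change is left aside. DESeq2 gave no adjusted p for Airn, Asb2, Cxcl2, Ehf and Hey2. Airn, Cxcl2 and Hey2 did not pass a filter at 1 CPM in 2 libraries, and Airn was not tested without clone 1 replicate 2.

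**Figure D1:**
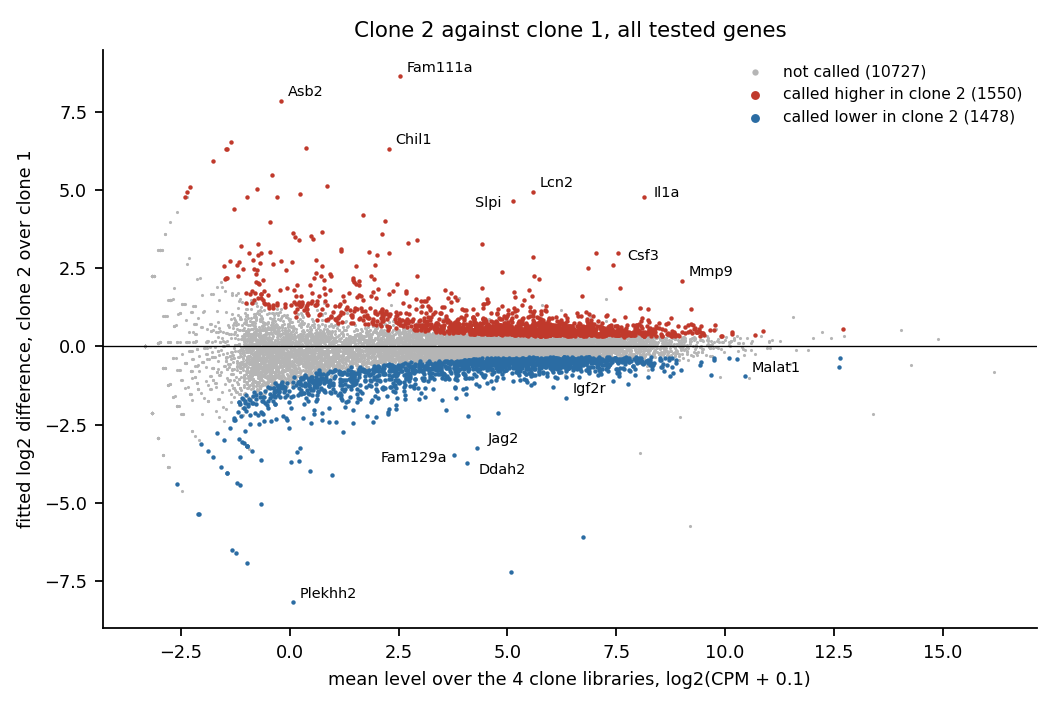
Fitted log2 difference between clone 2 and clone 1 (vertical axis) against the mean level over the 4 clone libraries as log2(CPM + 0.1) (horizontal axis), 1 point per tested gene. The 1550 genes called higher in clone 2 are red, the 1478 called lower are blue, and the named genes lie far from the band of small differences that holds most calls.

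Genes of secreted factors that attract or feed neutrophils were higher in clone 2, and 4 of them were among the 15 largest differences upwards (Cxcl1, Cxcl3, Cxcl5 and Csf3). The list of neutrophil chemokines and granulocyte growth factors had 9 tested members. It also holds Csf1, a macrophage growth factor gene, and Lif and Il11, which are not specific to neutrophils. In it 8 members were higher and 0 lower, beside 11.3% of all genes called higher and 10.7% lower. The median log2 difference was 2.59 against -0.0033 over all genes. With 1 clone library left out, 7, 8, 6 and 8 members were called higher, and 6 in DESeq2. Cxcl1, Cxcl2, Cxcl3 and Cxcl5, which encode ligands of the neutrophil receptor CXCR2, lie in the same region of chromosome 5 (GRCm38, from 90759360 to 90905938, all on the plus strand). Since these genes were all higher, the stretch of 250 bases before to 50 bases after the RefSeq start (GRCm38.p6) is shown. It is given for the 3 of them with an entry, and for Il1a, the protein-coding gene with the smallest adjusted p. Capitals mark matches to GGGNNNTTCC, a plain form of the motif bound by NF-kB, or to TGANTCA, the motif bound by AP-1, on both strands, where N is any base.
Cxcl1 (chr5:90890995-90891294, plus strand): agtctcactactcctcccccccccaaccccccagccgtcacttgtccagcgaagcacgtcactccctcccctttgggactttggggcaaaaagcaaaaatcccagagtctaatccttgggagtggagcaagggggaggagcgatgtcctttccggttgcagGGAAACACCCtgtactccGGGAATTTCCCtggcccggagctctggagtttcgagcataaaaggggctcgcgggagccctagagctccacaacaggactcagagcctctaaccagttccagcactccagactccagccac
Cxcl2 (chr5:90903649-90903948, plus strand): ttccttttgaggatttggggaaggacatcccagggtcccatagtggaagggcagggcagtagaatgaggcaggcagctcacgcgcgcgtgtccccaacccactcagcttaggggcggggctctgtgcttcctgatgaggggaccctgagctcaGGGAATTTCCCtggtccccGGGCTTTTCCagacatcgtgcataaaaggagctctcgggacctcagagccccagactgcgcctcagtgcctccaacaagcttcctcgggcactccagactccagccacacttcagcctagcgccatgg
Cxcl3 (chr5:90785851-90786150, plus strand): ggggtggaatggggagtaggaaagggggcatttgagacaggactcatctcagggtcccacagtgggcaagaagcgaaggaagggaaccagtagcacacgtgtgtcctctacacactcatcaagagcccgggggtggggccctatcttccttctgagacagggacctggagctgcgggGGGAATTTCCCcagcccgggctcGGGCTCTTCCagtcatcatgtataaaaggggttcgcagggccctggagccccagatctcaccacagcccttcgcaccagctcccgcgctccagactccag
Il1a (chr2:129309923-129310222, minus strand): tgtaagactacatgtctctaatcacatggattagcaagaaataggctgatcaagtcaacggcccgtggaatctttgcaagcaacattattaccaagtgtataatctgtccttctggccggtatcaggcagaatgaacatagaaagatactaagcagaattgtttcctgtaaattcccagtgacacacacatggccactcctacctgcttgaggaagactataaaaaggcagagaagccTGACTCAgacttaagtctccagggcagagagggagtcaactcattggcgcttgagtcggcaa
The run GGGAATTTCCC, which matches the first motif on both strands, stood in all 3 Cxcl windows, and its first base lay 71 bases before the start in Cxcl1, 97 in Cxcl2 and 73 in Cxcl3. Il1a had TGACTCA 12 bases before its start. Of 32851 such windows in the table, 5.56% held the first motif, 7.81% the second, and 141 windows both. Among the genes of the list, 7 of 9 had a window and 4 of these (57.1%) held the first motif, the fourth being Csf1. Among the 15 genes with the largest differences upwards, 12 had a window and 2 held it, and among the 15 with the largest differences downwards 0 of 13 did. A match is a description of the letters and not a measured binding site. The genes shown and the 15 in each direction were chosen by their differences, and the list with earlier results of these data known. The 3 Cxcl genes are neighbours of the same family with the same run, so their matches are not independent of each other.

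Cxcl1 had 43.7 and 53.5 CPM in clone 1 and 318 and 268 CPM in clone 2 (48.6 ± 6.95 against 293 ± 35.0 CPM, n = 2 each; log2 difference 2.59, SE 0.138, adjusted p = 9.36e-08). Cxcl5 had 28.3 and 30.6 CPM in clone 1 and 230 and 234 CPM in clone 2 (2.98, SE 0.131, adjusted p = 1.21e-08). Cxcl3 had 1.15 and 1.21 CPM in clone 1 and 13.6 and 9.93 CPM in clone 2 (3.30, SE 0.264, adjusted p = 2.25e-06). In each of the 3 genes the clones were far apart and their libraries close. Csf3, which encodes granulocyte colony-stimulating factor, the hormone that drives neutrophil production, had 41.9 and 41.5 CPM in clone 1 and 351 and 311 CPM in clone 2 (2.99, SE 0.158, adjusted p = 9.36e-08). The WT libraries had 14.2 and 20.8 CPM of Csf3 and 29.6 and 36.3 CPM of Cxcl5, so that clone 1 lay near WT for Cxcl5 and clone 2 lay above both. The other called members were named after their values were seen. They were Lif (33.8 ± 1.82 to 74.4 ± 8.50 CPM, log2 difference 1.14), Csf1 (64.6 ± 2.81 to 101 ± 0.805 CPM, 0.65), Cxcl2 (0.112 ± 0.0330 to 0.956 ± 0.314 CPM, 2.99) and Csf2 (0.803 ± 0.200 to 2.08 ± 0.384 CPM, 1.36). Csf1 had 129 CPM on average in WT, so that clone 2 lay below WT (-0.35, adjusted p = 0.0215). Cxcl2 had 2 reads and 3 reads in clone 1, at or under the floor. Its WT average was 0.473 CPM, and clone 2 showed no call against WT (0.85, adjusted p = 0.152). Cxcl2 was not called without clone 2 replicate 1 (adjusted p = 0.0681) and had no adjusted p in DESeq2, and Csf2 was not called without clone 1 replicate 1 (adjusted p = 0.112), without clone 2 replicate 1 (0.113), with unstranded counts (0.0633) or in DESeq2 (0.0870). The remaining member, Il11, had a log2 difference of -0.94 (adjusted p = 0.0637). In a list of other chemokines, 44.4% of the tested genes were called, beside 22.0% of all genes. In it Cxcl16 (157 ± 3.61 to 368 ± 53.5 CPM, 1.22) and Ccl20 (2.85 ± 0.607 to 9.74 ± 1.88 CPM, 1.76) were also higher. That list had 9 tested members, 3 higher and 1 lower, and with 1 library left out 3, 2, 2 and 3 were higher and 0 lower.

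Il1a (ENSMUSG00000027399, chromosome 2, 129299610 to 129309972, minus strand), which encodes the alarm cytokine interleukin-1 alpha, showed the smallest adjusted p of the protein-coding genes. It had 18.1 and 21.6 CPM in clone 1, 552 and 540 CPM in clone 2 and 8.09 and 6.85 CPM in WT (19.9 ± 2.48 against 546 ± 8.83 CPM; log2 difference 4.78, SE 0.143, adjusted p = 2.26e-10). Among 8 tested genes of the interleukin-1 family 3 were higher and 0 lower in clone 2, with a median of 1.15, and 2, 3, 2 and 2 were called with 1 library left out. The family stood at 37.5% called, against 22.0% of all genes. Il18rap, a receptor subunit for interleukin-18, went from 23.2 ± 3.50 to 51.7 ± 4.35 CPM (1.15, adjusted p = 0.000197). The receptor gene Il1r1 had 22.2 ± 0.374 and 17.6 ± 0.0757 CPM (-0.33, adjusted p = 0.0812) and its partner Il1rap 19.2 ± 0.899 and 18.6 ± 0.492 CPM (-0.05, adjusted p = 0.829), so that the ligand differed and these receptors, named for their role after their values were seen, showed no call.

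NF-kB is the family of transcription factors that interleukin-1 receptors switch on, and several of its inhibitors are also its targets. Of 18 tested genes for subunits and feedback inhibitors, 9 were higher and 1 was lower in clone 2 (median 0.48), and 7 were higher with any 1 of the clone libraries left out and 13 with either WT library left out. The list stood at 55.6% called, against 22.0% of all genes. Its lower member was Chuk, a kinase gene (-0.40, adjusted p = 0.0318). Chuk was not called with a trend in GC content and transcript length removed (-0.21, adjusted p = 0.119) or after subtraction of chromosome medians (-0.32, adjusted p = 0.0839). Without clone 1 replicate 1, clone 1 replicate 2 or clone 2 replicate 1 it was at -0.45, -0.36 and -0.27. Bcl3, an atypical inhibitor protein, had 0.176 and 0.270 CPM in clone 1 and 3.24 and 2.55 CPM in clone 2, with WT at 3.25 and 3.48 CPM (3.65, SE 0.354, adjusted p = 2.54e-05). Birc3, an inhibitor of apoptosis, went from 1.96 ± 0.287 to 5.71 ± 0.257 CPM (1.54), Tnip1 from 35.8 ± 2.55 to 81.1 ± 6.33 CPM (1.18), and Nfkbiz from 30.1 ± 0.831 to 58.2 ± 0.0978 CPM (0.95). Nfkbia (0.88), Tnfaip3 (0.62) and Nfkb1 (0.60), named after their values were seen, were higher too. Nfkbia had 43.3 CPM in clone 1, 79.8 CPM in clone 2 and 71.5 CPM in WT on average. Clone 1 was below WT for it (-0.73, adjusted p = 0.000755), and clone 2 showed no call against WT (0.15, adjusted p = 0.366). The subunit genes Rela and Rel, named likewise, differed by 0.08 (adjusted p = 0.664) and 0.01 (adjusted p = 0.987). Ikbke, which encodes a kinase of innate immune signalling related to the NF-kB activating kinases, had 16.7 and 16.9 CPM in clone 1, 81.2 and 79.2 CPM in clone 2 and 20.3 and 26.2 CPM in WT (2.25, adjusted p = 3.45e-07).

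Genes of secreted defence proteins that epithelia make in inflammation were among the largest differences. Lcn2, which encodes lipocalin 2, an iron-siderophore binding protein, had 3.31 and 2.65 CPM in clone 1, 98.6 and 85.8 CPM in clone 2 and 7.10 and 10.5 CPM in WT (4.95, SE 0.196, adjusted p = 4.48e-09). Slpi, an inhibitor of neutrophil elastase, had 2.95 and 2.29 CPM in clone 1, 73.1 and 60.0 CPM in clone 2 and 15.9 and 20.1 CPM in WT (4.66, SE 0.188, adjusted p = 4.61e-09). For both genes WT lay between the clones, with no overlap. Chil1, a chitinase-like secreted protein, was near the floor in clone 1 (4 reads and 1 read) and had 9.60 and 9.15 CPM in clone 2, with 0 and 3 reads in WT (6.31, SE 0.403, adjusted p = 3.35e-07). C3, the central complement component, named after its values were seen, had 84.6 and 79.2 CPM in clone 1 and 303 and 297 CPM in clone 2 (1.87, adjusted p = 2.79e-06).

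These groups hold genes that leukocytes also express. Of 24 immune cell markers, 11 were at 0 in all 4 clone libraries, among them Cd3e, Adgre1 and Mpo, and 21 were under 1 CPM. Ptprc, the pan-leukocyte antigen, had 0.0441 and 0.0450 CPM in clone 1 and 0.118 and 0.0863 CPM in clone 2. The summed level of the list was 13.2 to 13.3 CPM in clone 1 and 25.3 to 29.1 CPM in clone 2, and most of the difference was Cd14, a co-receptor for bacterial lipopolysaccharide (7.48 ± 0.671 to 20.9 ± 2.03 CPM, 1.48, adjusted p = 0.000128). Of 18 fibroblast and endothelial markers, 2 were tested and none was called at an adjusted p under 0.05 (1 at an unadjusted p under 0.05), 7 were at 0, and the sum was 24.6 to 26.0 CPM against 27.8 to 29.4 CPM.

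Several genes of matrix-degrading proteases were higher in clone 2 as well. The list of metalloproteinases and inhibitors stood at 53.8% called, against 22.0% of all genes. Of 13 tested matrix metalloproteinases and their inhibitors 7 were higher and 0 were lower (median 0.58), and 6, 6, 5 and 6 with 1 library left out. Mmp9, the gelatinase that digests basement-membrane collagen, had 190 and 202 CPM in clone 1, 905 and 777 CPM in clone 2 and 17.4 and 21.02 CPM in WT (2.10, SE 0.129, adjusted p = 3.45e-07). Mmp3, stromelysin 1, had 9.78 and 13.6 CPM in clone 1 and 88.9 and 79.3 CPM in clone 2, with WT at 9.86 and 13.3 CPM (2.85, SE 0.178, adjusted p = 3.78e-07). Mmp3 thus stood at the WT level in clone 1 and above it in clone 2, while Mmp9 was above WT in both. The inhibitor gene Timp1, named after its values were seen, was also higher (0.75, adjusted p = 0.00183, and 0.64 without clone 2 replicate 1). Mmp14, on chromosome 14 and named likewise, was higher (0.58), a call lost after subtraction of chromosome medians (0.25, adjusted p = 0.189). With 1 clone library left out Mmp14 was at 0.58, 0.57, 0.64 and 0.52. After that subtraction the list had 6 higher and 0 lower, with a median of 0.246. Mmp10 (9.57 ± 3.31 to 49.4 ± 3.74 CPM, 2.37) and Mmp13 (1.09 ± 0.142 to 4.41 ± 0.00953 CPM, 2.01) were higher too. In the plasminogen system, which activates several of these enzymes, 4 of 7 tested genes were higher and 1 was lower, and 3 higher and at most 1 lower with any 1 clone library left out. That list stood at 71.4% called, against 22.0% of all genes. Serpinb2, an inhibitor of plasminogen activators, went from 1.16 ± 0.394 to 3.77 ± 0.165 CPM (1.70). Plau, which encodes urokinase, went from 222 ± 26.8 to 384 ± 17.7 CPM (0.79), and its receptor gene Plaur from 83.4 ± 2.90 to 129 ± 11.5 CPM (0.63). Plgrkt, a plasminogen receptor gene, was the lower one (-0.60), a call lost without clone 1 replicate 2 (adjusted p = 0.143), clone 2 replicate 1 (0.119) or clone 2 replicate 2 (0.116). Of 15 ADAM and ADAMTS proteases 2 were higher and 2 lower. Their list stood at 26.7% called, near the 22.0% of all genes. Its median was 0.381, and 0.283, 0.392, 0.404 and 0.342 with 1 library left out.

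**Figure D2:**
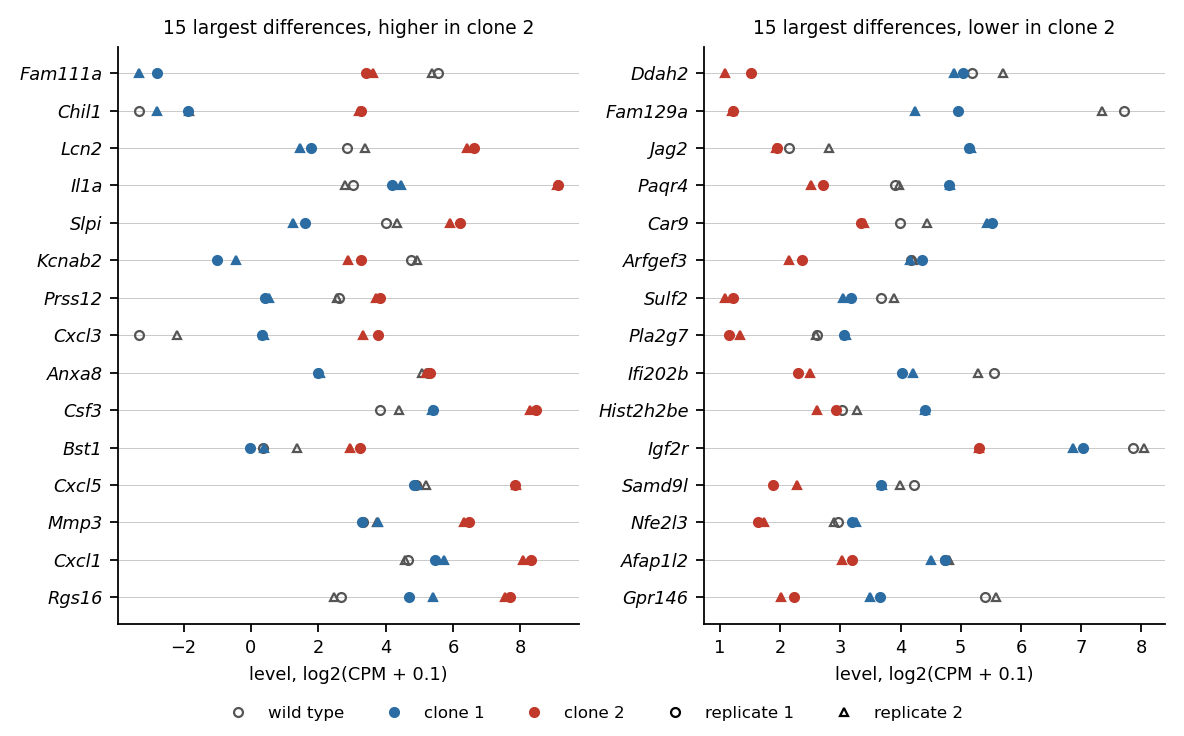
Level of each of the 15 genes with the largest differences upwards (left) and downwards (right) in every library, as log2(CPM + 0.1) on the horizontal axis. Genes are on the vertical axis and were taken among called genes with at least 8 CPM in the higher clone and an ordinary symbol. Clone 1 is blue, clone 2 red, WT open grey, circles are replicate 1 and triangles replicate 2; in every gene the libraries of the clones do not overlap, while WT lies near clone 1 for some genes (Cxcl5, Mmp3, Arfgef3), near clone 2 for others (Anxa8, Jag2), and between or beyond them for the rest.

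The other genes with the largest differences upwards have different roles. Fam111a, a protease gene linked to DNA replication and defence against viruses, had 1 read and 0 reads in the libraries of clone 1 and 463 reads in those of clone 2, a ratio of 518 by CPM (95% exact interval 92.5 to 20510, counting error only). Its level in clone 2 was 10.5 and 12.3 CPM against 47.0 and 41.6 CPM in WT. Kcnab2, a potassium channel subunit gene, had 0.397 and 0.629 CPM in clone 1, 9.54 and 7.34 CPM in clone 2 and 26.9 and 30.6 CPM in WT (4.02, SE 0.251, adjusted p = 3.78e-07). In both genes clone 2 lay below WT and clone 1 was the lowest, under the floor of 3 counts for Fam111a and above it for Kcnab2. Anxa8, a membrane-binding annexin gene, had 3.88 and 4.05 CPM in clone 1 and 39.7 and 36.6 CPM in clone 2, close to WT (38.4 and 33.8 CPM; 3.27, adjusted p = 1.23e-08). Prss12, a secreted serine protease gene (1.29 ± 0.0811 to 13.6 ± 0.714 CPM, 3.39), Bst1, which encodes the surface enzyme CD157 (1.05 ± 0.235 to 8.38 ± 1.23 CPM, 2.99), and Rgs16, a brake on G-protein signalling (34.2 ± 11.8 to 196 ± 12.3 CPM, 2.52), complete the 15.

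The genes lower in clone 2 by the largest amounts were of mixed function. They were taken among genes with at least 8 CPM in the higher clone and an ordinary symbol, not that of a predicted gene or pseudogene. The pseudogene Rps6-ps1, outside this rule and named after its values were seen, fell further. It had 69.7 and 64.7 CPM in clone 1 and 0.471 and 0.432 CPM in clone 2 (-7.20, adjusted p = 4.57e-11). Ddah2, which encodes an enzyme that degrades inhibitors of nitric oxide synthase, had 32.8 and 29.5 CPM in clone 1, 2.77 and 2.03 CPM in clone 2 and 36.4 and 52.2 CPM in WT (-3.71, SE 0.208, adjusted p = 1.60e-07). Fam129a, a stress-responsive gene also called Niban, had 30.8 and 18.7 CPM in clone 1, 2.24 and 2.20 CPM in clone 2 and 209 and 162 CPM in WT (-3.48, SE 0.268, adjusted p = 8.67e-05). Clone 2 was the lowest of the 3 groups in both genes. Jag2, a Notch ligand, had 35.1 and 35.7 CPM in clone 1, 3.77 and 3.71 CPM in clone 2 and 4.34 and 6.97 CPM in WT (-3.24, SE 0.191, adjusted p = 2.60e-07). Car9, the hypoxia-induced surface carbonic anhydrase, had 45.8 and 43.0 CPM in clone 1, 10.1 and 10.4 CPM in clone 2 and 15.8 and 21.6 CPM in WT (-2.12, SE 0.156, adjusted p = 2.17e-06). For Jag2 and Car9 it was clone 1 that stood above the other 2 groups. Igf2r, the imprinted receptor that clears insulin-like growth factor 2, went from 123 ± 10.1 to 39.4 ± 0.270 CPM with WT at 248 CPM (-1.65, adjusted p = 2.04e-06). The others were Paqr4 (-2.21), Arfgef3 (-2.02), Sulf2, an extracellular enzyme that trims heparan sulfate (-2.00), Pla2g7, the platelet-activating factor hydrolase (-1.87), Ifi202b (-1.72), Hist2h2be (-1.65), Samd9l, an interferon-induced growth suppressor gene (-1.60), Nfe2l3 (-1.56), Afap1l2 (-1.53) and Gpr146 (-1.48). Ifi202b and the histone gene have near-identical copies, and reads shared with a copy could have been left out or split.

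A gene with no read in both libraries of a clone and at least 1 CPM in both of the other clone was found once in each direction. Asb2, a substrate adaptor of a ubiquitin ligase, had 0 reads in clone 1 and 25 and 37 reads in clone 2, at least 23.1-fold higher when 3 counts over the group are taken as the floor, and WT had 1 read and 3 reads. Plekhh2, a gene of a cytoskeletal adaptor, had 46 and 40 reads in clone 1 and 0 in clone 2, at least 25.6-fold lower, and WT had 16.9 CPM on average. Egfr, the epidermal growth factor receptor, came close to this pattern with 32 and 52 reads in clone 1 and 2 and 5 reads in clone 2 (-3.38, adjusted p = 0.000740), and 3.20 CPM in WT. Ehf, an epithelial ETS factor gene, had 3 reads in clone 1 and 86 in clone 2, a ratio of 32.1 (exact 95% interval 10.6 to 159).

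Among growth factor and signalling lists the counts were mixed, beside 11.3% of all genes called higher and 10.7% lower. The ERK feedback list stood at 23.8% called, near the 22.0% of all genes. Of 11 genes for EGF family ligands and ErbB receptors 3 were higher and 2 lower (1, 1, 2 and 1 higher and 1 lower with 1 library left out). Nrg1, a ligand of ErbB3 and ErbB4, went from 6.81 ± 0.284 to 16.5 ± 0.132 CPM (1.27, adjusted p = 0.000106) as Egfr went down. Dusp5, a phosphatase that restrains ERK (44.3 ± 1.63 to 77.9 ± 3.41 CPM, 0.81), and Ier3 (227 ± 6.02 to 359 ± 39.2 CPM, 0.66) were higher. They belong to an ERK feedback list with 5 of 21 higher and 0 lower (2, 3, 3 and 2 with 1 library left out). AP-1 factors gave 5 of 14 higher and 1 lower, but 0, 0, 0 and 3 higher and 0 lower with 1 clone library left out, and 9 higher with either WT library left out. In the Notch pathway 2 of 18 genes were higher and 6 lower (1, 0, 0 and 0 higher and 3, 4, 2 and 3 lower). Besides Jag2, the receptor gene Notch4 went from 2.25 ± 0.252 to 0.495 ± 0.0332 CPM (-2.16, adjusted p = 0.000650). The target gene Hey2 had 31 reads in clone 1 and 3 in clone 2, a ratio of 9.23 (exact 95% interval 2.88 to 47.2), a call lost without clone 2 replicate 1 (adjusted p = 0.0702). The targets Hes1 and Hey1, also named after their values were seen, had log2 differences of -0.04 (adjusted p = 0.854) and 0.02 (adjusted p = 0.966). Wnt10a, a Wnt ligand gene, was higher (12.4 ± 0.111 to 31.8 ± 4.06 CPM, 1.35) and Sfrp1, a secreted Wnt antagonist gene, lower (0.869 ± 0.170 to 0.153 ± 0.0333 CPM, -2.48). The Wnt list had 4 higher and 3 lower of 22 genes (2, 1, 2 and 1 higher, 1, 2, 1 and 1 lower). In the TGF-beta and BMP list 5 of 25 were higher and 3 lower (3, 1, 0 and 2 higher, 1 lower each). Tgfbr1, a receptor kinase gene, went from 96.1 ± 6.19 to 55.1 ± 8.33 CPM (-0.80). Ccn1, a YAP/TAZ target, went from 86.9 ± 10.8 to 155 ± 10.2 CPM (0.84). Its list had 5 of 17 higher and 1 lower (3, 3, 2 and 4 higher, 0 lower). L1cam, a neural adhesion gene, went from 60.2 ± 2.93 to 27.4 ± 1.88 CPM with WT at 3.15 CPM (-1.13). Vegfc, the lymphatic growth factor gene, went from 5.23 ± 0.0840 to 18.2 ± 0.220 CPM (1.80).

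Epithelial and matrix genes moved in both directions, beside 11.3% of all genes called higher and 10.7% lower. Of 33 tested genes of epithelial adhesion and identity 5 were higher and 6 lower (2, 2, 2 and 3 higher and 4, 3, 2 and 4 lower with 1 library left out). Epcam, an epithelial adhesion molecule, had 553 and 594 CPM in clone 1, 304 and 327 CPM in clone 2 and 240 and 229 CPM in WT (-0.86, SE 0.110, adjusted p = 0.000220). Esrp1, a splicing factor of epithelial cells, went from 173 ± 4.34 to 102 ± 5.44 CPM (-0.76), and Elf3, an epithelial ETS factor gene, went up from 12.8 ± 1.08 to 30.2 ± 1.65 CPM (1.24). Of 15 mesenchymal genes and transition factors 3 were higher and 6 lower (1, 1, 1 and 1 higher and 3, 3, 2 and 3 lower). Fn1, fibronectin, had 1141 and 1003 CPM in clone 1, 562 and 569 CPM in clone 2 and 357 and 461 CPM in WT (-0.92, adjusted p = 0.000533). Postn, periostin, went from 5.67 ± 0.204 to 1.86 ± 0.793 CPM (-1.57), while Sparc, another matrix glycoprotein gene, went up from 21.2 ± 1.62 to 49.8 ± 2.84 CPM (1.23). Genes of both the epithelial and the mesenchymal list were thus lower. Of 19 integrin and laminin genes 8 were higher and 2 lower (2, 4, 3 and 3 higher, 1 lower each), led by the laminin-332 genes Lamb3 (302 ± 10.8 to 563 ± 8.75 CPM, 0.90) and Lama3 (267 ± 7.71 to 420 ± 14.6 CPM, 0.65). Krt80 was higher (39.3 ± 2.94 to 70.2 ± 4.03 CPM, 0.84) among 8 keratin genes with 2 higher and 0 lower (2, 1, 1 and 1). The annexin and S100 list had 6 of 20 higher and 2 lower (2, 2, 2 and 4 higher and 1, 2, 1 and 1 lower). Anxa1, a membrane-binding protein gene that dampens inflammation, went down from 632 ± 48.0 to 378 ± 66.0 CPM (-0.74) and Anxa11 up from 34.1 ± 2.92 to 61.6 ± 0.985 CPM (0.85).

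Several metabolism and stress lists held more higher than lower members, beside 11.3% of all genes called higher and 10.7% lower. The amino acid stress list stood at 24.1% called, near the 22.0% of all genes. Of 33 glycolysis and hypoxia genes 15 were higher and Car9 was the only one lower (6, 6, 2 and 11 higher with 1 library left out). Hk2, the hexokinase that starts glycolysis, went from 75.6 ± 0.588 to 126 ± 17.8 CPM (0.73, adjusted p = 0.00171) and Aldoa, aldolase, from 666 ± 50.4 to 1068 ± 121 CPM (0.68, adjusted p = 0.00197). Car9 and the glycolytic genes, which share hypoxia as a known inducer, thus differed in opposite directions. Of 43 nuclear genes for respiratory chain subunits 13 were higher and 1 lower (3, 4, 2 and 8 higher and 0 lower). Examples were Ndufa8 of complex I (45.9 ± 0.0771 to 75.7 ± 6.06 CPM, 0.72) and Cox6a1 of complex IV (142 ± 8.34 to 223 ± 25.3 CPM, 0.66). Of 19 endoplasmic reticulum chaperone genes 11 were higher and 0 lower (median 0.45; 3, 3, 2 and 6 higher). Calr, calreticulin, was one of them (433 ± 19.05 to 694 ± 45.4 CPM, 0.68, adjusted p = 0.00200). Of 22 genes of xenobiotic metabolism 10 were higher and 2 lower (5, 4, 4 and 6 higher and 0, 1, 0 and 0 lower). Mgst1, a microsomal glutathione transferase gene, went from 0.955 ± 0.333 to 4.33 ± 0.0432 CPM with WT at 74.5 CPM (2.17). Aldh3a1, an aldehyde dehydrogenase gene, went from 0.244 ± 0.0910 to 1.64 ± 0.0662 CPM with WT at 11.3 CPM (2.71). Abcc4, an efflux pump gene, went from 32.5 ± 1.28 to 64.0 ± 0.427 CPM with WT at 33.6 CPM (0.98). Mgst1 and Aldh3a1 were far below WT in both clones, whereas Abcc4 in clone 1 was close to WT. Of the heat shock genes, Hspb8 (28.6 ± 1.96 to 62.8 ± 8.60 CPM, 1.13) and Cryab (1.09 ± 0.0162 to 4.73 ± 1.38 CPM, 2.09), which encode small heat shock proteins, were higher. Their list had 4 of 19 higher and 3 lower (2, 2, 2 and 2 higher and 2, 1, 0 and 2 lower). Of the amino acid stress genes, Cth, an enzyme of cysteine synthesis, was lower (18.5 ± 1.42 to 8.91 ± 0.525 CPM, -1.06) and Cebpb, a transcription factor gene, higher (104 ± 0.527 to 202 ± 9.93 CPM, 0.96). Their list had 5 of 29 higher and 2 lower (1, 2, 1 and 4 higher, 1 lower each).

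The proliferation lists had 17.4% (S phase) and 24.0% (G2 and mitosis) of their genes called, against 22.0% of all genes, while Mki67 differed. Of 46 S-phase genes 6 were higher and 2 lower (1, 2, 2 and 4 higher and 0, 0, 0 and 1 lower, and 15 higher and 5 lower with either WT library left out). Ccne1, cyclin E1, led them (15.2 ± 1.60 to 27.8 ± 2.31 CPM, 0.87). Of 50 genes of G2 and mitosis 4 were higher and 8 lower (0, 2, 0 and 3 higher and 7, 4, 1 and 11 lower). Ndc80, the outer kinetochore gene, had 49.5 and 62.0 CPM in clone 1, 24.0 and 30.5 CPM in clone 2 and 47.1 and 50.8 CPM in WT (-1.03, SE 0.148, adjusted p = 0.000503). Of 22 p53 pathway genes 2 were higher and 3 lower (2, 1, 1 and 2 higher, 1 lower each). Fas, the death receptor gene, went up from 3.14 ± 0.138 to 6.51 ± 0.116 CPM (1.05) and Trp53inp1, a p53-induced gene, down from 7.59 ± 0.366 to 3.04 ± 0.203 CPM (-1.32). Rrp9, an RNA processing factor of the nucleolus, went from 92.9 ± 1.65 to 152 ± 8.55 CPM (0.71). Its list, ribosome biogenesis, had 10 of 44 higher and 4 lower (3, 2, 2 and 7 higher and 2, 0, 0 and 3 lower). Interferon-induced genes, with 2 of 29 higher and 1 lower, and MHC class I and peptide loading genes, with 4 of 23 higher and 0 lower, stood at 10.3% and 17.4% called against 22.0% of all genes (2, 0, 0 and 1 higher and 1, 0, 0 and 0 lower, and 3, 1, 1 and 2 higher, with 1 library left out). Of the 7 tested genes of the mitochondrial genome 0 were called in edgeR's test at an adjusted p under 0.05 (0 at an unadjusted p under 0.05); their median was -0.77, and it lay between -1.24 and -0.244 with 1 of the clone libraries left out and at -0.288 with the GC and length trend removed. In that fit mt-Nd6, a complex I subunit, was called higher (0.82, adjusted p = 0.000475), as it was after subtraction of chromosome medians (0.87, adjusted p = 0.0133), and 1 gene was called lower with either WT library left out.

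Among the remaining lists, cholesterol and fatty acid synthesis had 9 of 33 genes higher and 3 lower (1, 3, 0 and 6 higher and 1, 0, 0 and 0 lower with 1 library left out). NRF2 targets, the antioxidant response, had 6 of 25 higher and 2 lower (1, 2, 1 and 1 higher and 2, 0, 0 and 1 lower). Replication-dependent histones, whose near-identical copies make single genes uncertain, had 5 of 31 higher and 2 lower (0, 0, 0 and 12 higher, 1 lower each). Receptor tyrosine kinases outside the ErbB family had 0 of 17 higher and 2 lower (2, 2, 1 and 1 lower). Hox genes had 0 of 9 higher and 1 lower (0 lower with any 1 clone library left out). DNA methylation and Polycomb genes had 2 of 27 higher and 3 lower (0, 0, 0 and 1 higher and 1, 1, 0 and 2 lower). Axon guidance genes had 6 of 32 higher and 5 lower (1, 3, 1 and 3 higher and 3, 3, 1 and 3 lower). Of 46 germline and cancer-testis genes only Tex14 was read well enough to be tested, and it gave no call. Over all genes 11.3% were called higher and 10.7% lower. The DNA methylation and Polycomb list stood at 18.5% called, near the 22.0% of all genes.

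**Figure D3:**
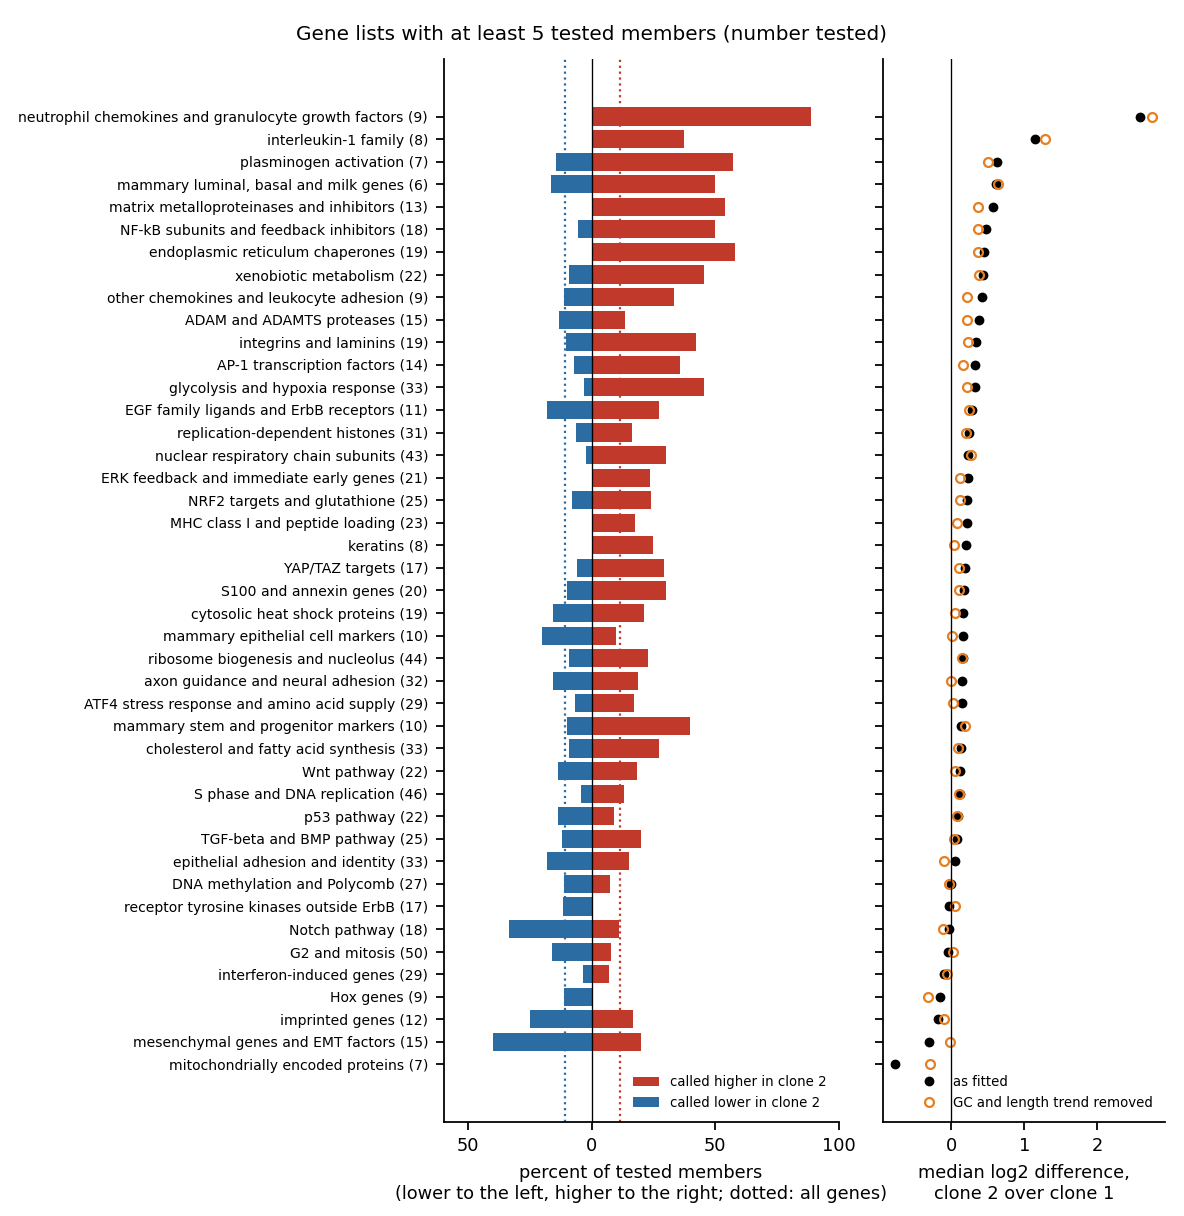
Left, the percentage of tested members of each list called higher (red, to the right) or lower (blue, to the left) in clone 2, with dotted lines at the percentages of all genes, 11.3 and 10.7; right, the median log2 difference of each list as fitted (black) and with the trend in GC content and transcript length removed (orange). Neutrophil chemokines stand out in both panels, the Notch and mesenchymal lists have the larger blue bars, and most medians lie near 0.

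A trend with base composition ran through the comparison. In quintiles of the genes by the GC content of the longest transcript, the median log2 difference went from -0.293 in the quintile with the lowest GC over -0.101, 0.024 and 0.142 to 0.210 in the quintile with the highest, and the calls from 65 higher and 608 lower to 570 higher and 102 lower. Between the libraries of clone 1 the medians of the outer quintiles were 0.086 and -0.083, and between those of clone 2 they were 0.111 and -0.084, a smaller spread. When a smooth trend in GC content and length was removed from each library, a fit chosen after seeing the data, the outer medians became -0.040 and 0.020 and the calls 1583 higher (11.5%) and 1580 lower (11.5%). In that fit 8 of 9 genes of the neutrophil chemokine list were higher and 1, Il11, lower (median 2.76). Metalloproteinase genes had 7 of 13 higher and 1 lower (0.37), and NF-kB genes 9 of 18 higher and 0 lower (0.36). Chaperone genes had 11 of 19 higher and 0 lower (0.37). For glycolysis the counts were 14 and 3, for the respiratory chain 15 and 0, for xenobiotic metabolism 10 and 3, and for the Notch list 2 and 6. Other lists lost their excess of higher calls: the amino acid stress list had 2 higher and 3 lower, the heat shock list 4 and 4, and the NRF2 list 4 and 4. The mesenchymal list, at 2 and 5, had a median of -0.02 in place of -0.31, and for G2 and mitosis the counts were 6 and 6 in place of 4 and 8. The part of base composition in the smaller differences was not tested beyond this fit.

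Long non-coding RNAs were lower in clone 2 as a class. This class was set apart after its values were seen. Of 1511 tested genes in 6 annotation classes (antisense, lincRNA, bidirectional promoter, processed transcript, sense intronic and unassigned transcripts), 11 were higher (0.7%) and 254 lower (16.8%), with a median of -0.451, against 1505 higher (13.2%) and 1197 lower (10.5%) of 11427 protein-coding genes with a median of 0.023. The medians of the 6 classes lay between -0.586 and -0.382. Against WT, the median over all of them was 0.243 in clone 1 and -0.101 in clone 2, from contrasts that share the WT libraries. With 1 clone library left out 98, 81, 55 and 61 were called lower and 4, 5, 3 and 8 higher, and DESeq2 called 92 lower and 11 higher. Between the 2 libraries of a clone the class median differed by 0.002 in clone 1 and -0.065 in clone 2, and it lay between -0.472 and -0.402 with any 1 library left out. With the GC and length trend removed, 15 were higher and 244 lower, with a median of -0.335. Reads that matched no annotated exon on the counted strand, 12.2% and 10.7% in clone 1 and 9.51% and 9.21% in clone 2, moved in the same direction. Such reads include those in introns, and their part in the result was not tested.

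The best known of these RNAs, named after their values were seen, showed it one by one. Malat1, a nuclear speckle RNA, had 1946 and 1731 CPM in clone 1, 881 and 1024 CPM in clone 2 and 3310.7 CPM on average in WT (-0.95, SE 0.124, adjusted p = 0.000254). Neat1, the scaffold of paraspeckles, went from 233 ± 8.54 to 109 ± 13.7 CPM with WT at 143 CPM (-1.10, adjusted p = 0.000158). Host genes of small nucleolar RNAs were lower too. Gas5 had 565 ± 5.89 and 293 ± 36.6 CPM (-0.95) and Snhg1 398 ± 7.97 and 204 ± 9.85 CPM (-0.96). Snhg5 had 202 ± 2.32 and 117 ± 0.643 CPM (-0.78) and Snhg8 111 ± 2.63 and 72.4 ± 3.18 CPM (-0.61). Their WT averages were 514 CPM for Gas5, 101 for Snhg1, 58.6 for Snhg5 and 83.4 for Snhg8. Among these host genes, clone 2 thus lay above WT for Snhg1 and Snhg5 and below it for Gas5. For Snhg8 the difference of clone 2 from WT was not called (-0.20, adjusted p = 0.131). The snoRNAs themselves, which are partly cut from such hosts, gave 13 higher and 1 lower of 121 (3, 5, 1 and 20 higher and 0 lower with 1 clone library left out, and 39 and 38 higher without WT replicate 1 or WT replicate 2). The share of snoRNAs called was 10.7% higher and 0.8% lower, beside 11.3% and 10.7% of all genes. The higher share was thus near that of all genes, and the lower share was smaller. The median of the snoRNAs was 0.456 (0.207 with the GC and length trend removed), beside 0.195 and -0.287 between libraries of the same clone. Kcnq1ot1, the antisense RNA of an imprinted domain, went from 61.5 ± 2.66 to 32.1 ± 1.46 CPM (-0.94, adjusted p = 0.000284; -0.41 with the GC and length trend removed). Airn, the antisense RNA that overlaps Igf2r, had 29 reads in clone 1 and 0 in clone 2, at least 8.64-fold lower over the floor, a call lost without clone 2 replicate 1 (adjusted p = 0.0544). Airn and Igf2r were thus lower together; the counts used strand, so reads of the pair are told apart.

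**Figure D4:**
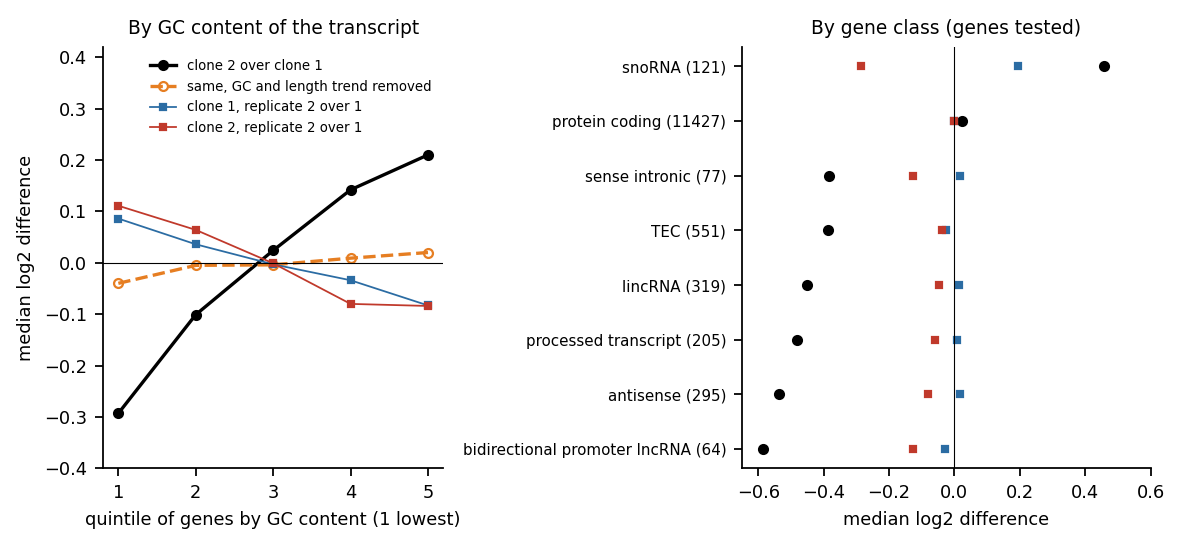
Median log2 difference by quintile of GC content (left) and by gene class (right); black, clone 2 over clone 1; orange (left only), the same with the GC and length trend removed; blue and red squares, replicate 2 over replicate 1 within clone 1 and within clone 2. The clone medians rise from -0.293 to 0.210 with GC content and lie below -0.38 in every long non-coding class, further from 0 than the differences between libraries of a clone.

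Neighbouring genes also differed together over long stretches of a few chromosomes. The counts below stand beside 11.3% of all genes called higher and 10.7% lower. On chromosome 17, 13 of 655 tested genes were higher and 238 lower in clone 2 (median -0.345), on chromosome 4, 20 of 835 were higher and 234 lower (-0.233), and on chromosome 14, 164 of 452 were higher and 7 lower (0.332). With the GC and length trend removed the medians were -0.436, -0.289 and 0.405. Against WT, chromosome 17 had a median of 0.553 in clone 1 and 0.167 in clone 2, and chromosome 14 one of -0.247 in clone 1 and 0.084 in clone 2; these contrasts share the WT libraries. Chromosome 17 was thus raised over WT mostly in clone 1, and chromosome 14 was below WT in clone 1 and slightly above it in clone 2. Chromosome 4 lay at 0.161 in clone 1 and -0.154 in clone 2.

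Windows of 41 neighbouring tested genes whose median difference was at least 0.4 in size merged into 14 segments, 4 higher and 10 lower, with 1081 genes, 7.86% of those tested. With windows of 81 genes there were 6 segments with 828 genes. In the 14 segments 46.2% of the genes were called, against 19.95% outside, a value that the choice of segments raises. The lower segments of chromosome 17 covered 3076578 to 24596508 (127 genes from Pisd-ps2 to Pkd1, 2 higher and 68 lower, median -0.53), 3 stretches between 29614790 and 56140343, and 56551414 to 94878321 (148 genes, 4 higher and 74 lower, -0.47). On chromosome 4 the segments ran from 3549041 to 41503076 (100 genes, -0.46), from 47353222 to 62426990 (50 genes, -0.39) and from 62522649 to 107279938 (93 genes, -0.49). On chromosome 14 they ran from 7817957 to 20723619 (44 genes, 0.41), from 50765415 to 59597959 (108 genes, 0.46) and from 63122462 to 77036904 (82 genes, 0.44). Single segments lay on chromosome 10 (77486661 to 79970203, 41 genes, 0.41), chromosome 13 (74322254 to 90143907, 43 genes, -0.32) and chromosome 19 (27761721 to 41933423, 73 genes, -0.40). With the GC and length trend removed their medians were 0.268, -0.131 and -0.277. Those of the segments on chromosome 4 lay between -0.382 and -0.344, on chromosome 14 between 0.426 and 0.444, and on chromosome 17 between -0.512 and -0.401. The chromosome 13 segment held 2 higher and 9 lower calls of 43 genes. Copy number was not measured in these data, and its part in the shifts was not tested. Of the 15 genes with the largest differences upwards 0 lie in a segment, and of the 15 downwards 3 do, Paqr4, Pla2g7 and Igf2r. Epcam, Plekhh2, Ndc80 and Airn on chromosome 17 and Esrp1, Tgfbr1 and Trp53inp1 on chromosome 4 lie in lower segments too, while Fas, on chromosome 19, lies in a lower segment and was higher. After subtraction of each chromosome's median, 1227 genes were higher and 1192 lower.

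**Figure D5:**
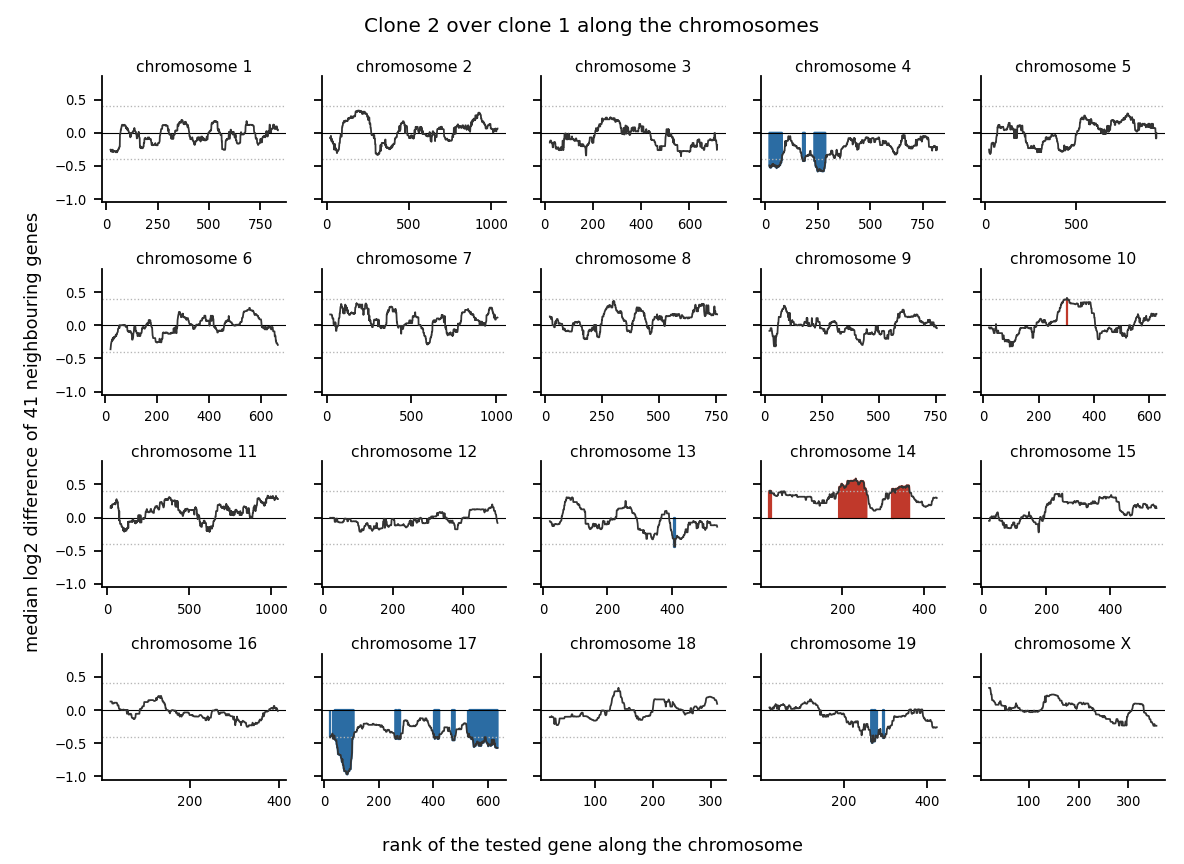
Median log2 difference (clone 2 over clone 1) in windows of 41 neighbouring tested genes, plotted by the rank of the window's middle gene along each chromosome; dotted lines mark 0.4 and -0.4, and windows beyond them are filled. The filled stretches lie mainly on chromosomes 4 and 17 (lower) and 14 (higher), with short ones on 10, 13 and 19.

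In 69 genes the clones stood on opposite sides of WT, each called against WT and between the clones, 38 with clone 2 as the higher line and 31 with clone 1. Against WT, 50.4% of the genes were called in clone 1 and 53.1% in clone 2, and both contrasts use the same WT libraries. Lcn2, Slpi, Prss12 and Bst1 were below WT in clone 1 and above it in clone 2, and Jag2, Paqr4, Car9 and Pla2g7 the other way round. Paqr4, a progestin and adipoQ receptor family gene, had 27.9 and 28.1 CPM in clone 1, 6.48 and 5.61 CPM in clone 2 and 14.9 and 15.7 CPM in WT.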

How the data were processed

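Total RNA depleted of ribosomal RNA was sequenced with strand information from 2 libraries each of WT 4T1 cells and of 2 Ki-67 knockout clones. The deposited values are read counts per gene, made by the authors with STAR 2.6.0c on GRCm38, per the submitters' processing notes; the annotation release is not given in the sources used here. The column of reads from the reverse strand was used, which held 92.3% to 95.7% of stranded gene reads, and summary rows without a gene were dropped. Reads that matched no annotated exon on that strand, one of these rows, made up 9.21% to 12.2% of reads in the clones. Symbols, coordinates and classes came from GENCODE mouse release 21, where 54079 of 54146 identifiers matched.

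Genes with enough reads by edgeR's default filter (13755 of 26172 with a read) were fitted in edgeR 4.0.16 (quasi-likelihood test, robust, TMM scaling) with all 6 libraries in 3 groups, and p-values were adjusted over all tested genes by the Benjamini-Hochberg method. A call is an adjusted p under 0.05. Every adjusted p printed without another tool's name is from this test, and errors are SDs of 2 libraries. Data were simulated for clone 2 against clone 1 (10 draws, 13529 genes, 200 changed). The test called 44.8% of the changes set at 1.5-fold, 87.3% of those at 2-fold and 98.5% of those at 4-fold. A median of 8.71% of calls were false (3.13% to 12.9% by draw), above the threshold of 0.05. The changed genes had at least 1 CPM, were balanced in direction and were far fewer than the 3028 called here. No GC trend or chromosome shift was put in between the clones, so these rates may not carry over. Replicate numbers were not used as a pairing.

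Named genes were Mki67, the 15 largest called differences in each direction with at least 8 CPM in the higher clone and an ordinary symbol, genes read in 1 clone only, up to 6 genes in each direction on opposite sides of WT, up to 4 called members of each gene list with the smallest adjusted p, and members called against their list. Others are marked as chosen after their values were seen. The gene lists and the comparison were chosen with earlier results of these data known. Alternatives were other scalings, filters and tests (DESeq2 1.42.0, limma-voom with limma 3.58.1), unstranded counts, only the 4 clone libraries, a replicate block, chromosome shifts removed, and each library left out. A trend in GC content and transcript length, removed as an offset, was added after seeing the data. Promoter sequences are from RefSeq (GRCm38.p6). Exact intervals at 95% and the floor of 3 counts cover counting error only.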

Additional observations from a re-analysis of the deposited data

Results flagged for a closer look

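Between genes called against WT in both clones, 12 were looked at again because the clones lay on opposite sides of WT and differed from each other in edgeR's test of that difference. Against WT, 50.4% of tested genes were called in clone 1 and 53.1% in clone 2, and both contrasts use the same WT libraries. With clone 2 as the higher line, the log2 differences between the clones were 4.95 for Lcn2, 4.66 for Slpi, 3.39 for Prss12, 2.99 for Bst1, 2.25 for Ikbke and 1.80 for Vegfc. The levels of Bst1 in clone 1 (0.881 and 1.21 CPM) and in WT (1.18 and 2.48 CPM) overlapped. With clone 1 as the higher line, they were -3.24 for Jag2, -2.21 for Paqr4, -2.12 for Car9, -1.87 for Pla2g7, -1.31 for Arhgap28 and -1.28 for Ak3. Ak3, a mitochondrial adenylate kinase gene, had 94.6 and 92.3 CPM in clone 1, 40.6 and 36.3 CPM in clone 2 and 74.7 and 62.9 CPM in WT, and it lies in the lower segment of chromosome 19. Arhgap28 and Pla2g7 lie in lower segments of chromosome 17.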

How the results depend on the processing

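Of 185 genes named by the rule, 95 kept their side of the threshold in each of the 18 settings that gave them a value, a required minimum change aside, and 62 of the other 90 changed only when a library was left out. With a change of more than 1.5-fold required, 182 genes were higher and 162 lower in clone 2. With 1 library left out, 341 to 2365 genes were higher and 284 to 2080 lower. The lowest counts came without clone 2 replicate 1 and the highest without WT replicate 2. DESeq2 called 1525 higher and 1096 lower, upper-quartile scaling 1333 and 1687 (44.1% of calls higher against 51.2%), and the 4 clone libraries alone, with 2 residual degrees of freedom, 2310 and 2134. With the replicate block, 1278 were higher and 1288 lower; deviations of same-numbered libraries of the clones correlated at 0.005, so the numbers are not shown to pair libraries. At a minimum of 0.5 CPM, 2 genes were read in clone 2 only and 2 in clone 1 only. Windows of 81 genes gave 6 segments. The directions of 2 values reversed, neither called as reported: mt-Nd6, at 0.33 (adjusted p = 0.247), was at -0.13 with unstranded counts (adjusted p = 0.595) but called higher with the GC and length trend (0.82, adjusted p = 0.000475) or the chromosome medians (0.87, adjusted p = 0.0133) removed, and Tex14, at -0.24 (adjusted p = 0.670), was between -0.58 without clone 2 replicate 1 and 0.10 without clone 2 replicate 2. The cause was not tested. At this depth a gene under about 0.132 to 0.175 CPM could not be told from 0 in the clones.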

Other observations

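Reads that fell on the forward strand and matched more than 1 gene were uneven between the clones, at 9571 and 4075 reads-per-million in clone 1, 297 and 218 in clone 2, and 5913 and 18768 in WT. These values belong to a strand column that the gene levels do not use. Lars2, the gene of a mitochondrial leucine-tRNA ligase, chosen after its values were seen, had 1506 and 801 CPM in clone 1, 21.7 and 21.1 CPM in clone 2, and 845 and 3987 CPM in WT (log2 difference -5.75, adjusted p = 0.0531 in edgeR). The libraries of the clones did not overlap, and the adjusted p was 1.23e-09 in DESeq2 and 0.000211 in limma-voom. Gm15564, a predicted gene also chosen after its values were seen, had 258 and 163 CPM in clone 1 and 3.24 and 2.98 CPM in clone 2 (-6.08, adjusted p = 0.0302). With unstranded counts its difference was -1.20 (adjusted p = 0.551), and its call was lost when any 1 of the 4 clone libraries was left out (adjusted p from 0.106 to 0.161). Mir6236, a gene annotated as a microRNA, had 614 and 358 CPM in clone 1 and 19.5 and 71.4 CPM in clone 2 (-3.41, adjusted p = 0.132 in edgeR and 0.00451 in DESeq2). In WT, Gm15564 had 164 and 529 CPM and Mir6236 404 and 1314 CPM. For each of these 3 genes the spread within clone 1 and WT was wide. Lars2 and Gm15564 ranked the libraries in the same order as the ambiguous forward-strand reads, and Mir6236 did so except within clone 2. Whether the reads counted for these genes came from their own transcripts was not tested.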
